A study of Homo sapiens with 6 samples.

Results

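The genes described here are 48 genes of the actin cytoskeleton and of focal adhesions: linkers between integrins and actin, LIM proteins, crosslinkers, non-muscle myosin II, tropomyosins, calponins, actin itself with its turnover proteins, filament elongators with the ROCK kinases, and serum response factor (SRF) with its coactivators. The list was chosen by function and by symbol, and the measured values it was selected on are those of VCL, which differed among the sgH2AC19 libraries. It was drawn up with earlier results of the same comparison known. VCL is therefore given by its values with no p-value, and counts that include its call say so. The adjusted p-values of the other members describe them and are no independent support for the list. The deposited table holds 62700 human Ensembl genes, and each of the 48 members matched a row. A gene was tested where 3 or more libraries had 1 FPKM or above, which 12871 genes did, and 44 of them are members. ILK, FLNC, MYL9 and CNN1 did not reach that level.

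The RNA came from A549 cells, a human line of epithelial type established from a lung adenocarcinoma. The 3 sgControl libraries come from cells labelled WT by genotype, and the 3 sgH2AC19 libraries from knockout derivatives named for a guide RNA to H2AC19, which encodes a core histone H2A made mainly in S phase. Both groups are the same line in the same growth medium, and the labels name no other allele, agent or time. The labels do not say whether the derivatives are 1 clone or a pool of cells, or whether replicates were separate cultures, so a p-value here reflects only how far these libraries scatter, and that scatter may be technical. H2AC19 was listed at 0 FPKM in all 6 libraries, so the table does not check the knockout and each direction rests on the labels.

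Cells hold on to the matrix through integrins, and talin, vinculin, kindlins and the paxillin family couple the integrin tails to actin filaments at focal adhesions. Alpha-actinin, filamin, myosin II and tropomyosin arrange those filaments into stress fibres, which pull on the adhesions. The same system feeds back on transcription: monomeric actin holds the coactivators MRTFA and MRTFB in the cytoplasm, and when filaments form the coactivators reach the nucleus and act with SRF at the CArG box, a motif in the promoters of many actin and adhesion genes.

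The CArG box is 10 bases long and reads the same way on both strands, so it was looked for once in each RefSeq promoter of GRCh38.p14, a window from 250 bases before to 50 after an annotated start. At least 1 promoter with a box was found for 10 of the 41 members with an entry (24.4%), against 1.60% of all 27305 gene symbols in the table of promoters. Counted by promoter, 10 of the 81 promoters of members held a box (12.3%) against 1.29% of 35116. Genes of the SRF and MRTF system were among those the list was chosen to hold. The choice itself thus favours genes with a box, and nothing is read from the higher share. FERMT1, TAGLN, PTK2, ACTB, PARVA, MYL9 and SRC had no entry. The windows below belong to members that the results turn on, with the box in capitals and up to 10 bases on either side, written 5′ to 3′ on the strand of the gene. TPM4 and LPP are the members with the largest rises, ACTG1 and ACTN1 are called members with lower levels, and SRF, TGFB1I1, ROCK2 and CNN2 are among the members in which sgH2AC19 replicate 3 stood above replicates 1 and 2. SRF has a pair of boxes in the same promoter, at chr6:43171229-43171258 and chr6:43171249-43171278, and the box nearer the start ends directly before it.
TPM4: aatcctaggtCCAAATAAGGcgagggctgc
LPP: gcctgcttctCCATATTTGGaaatgtttac
ACTG1: ggaaagatcgCCATATATGGacatgttctg
ACTN1: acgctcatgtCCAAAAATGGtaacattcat
SRF, farther box: ctggggctcaCCATATAAGGagcggcctcg
SRF, nearer box: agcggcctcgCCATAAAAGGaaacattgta
TGFB1I1: tggaggggagCCAAATTTGGcttgggtgaa
ROCK2: aaatgtacttCCTTAAATGGgtttactggg
CNN2: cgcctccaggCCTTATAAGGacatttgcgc

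In TPM4 the window is chr19:16067355-16067384 on the plus strand, and the box begins 173 bases before the start. The LPP window is chr3:188212519-188212548 on the plus strand, with the box beginning 183 bases before the start. That start is an internal one, as the LPP gene in GENCODE 29 begins at chr3:188153284. The windows of TPM4, ACTG1, ACTN1, TGFB1I1 and ROCK2 also lie inside the span of their genes, so a start here need not be the outermost. The ACTG1 window is chr17:81512874-81512903 on the minus strand, with the box beginning 94 bases before the start, and that of ACTN1 is chr14:68977718-68977747 on the minus strand, 171 bases before. TGFB1I1 has its window at chr16:31473144-31473173 on the plus strand, 51 bases before the start. ROCK2 has its window at chr2:11345491-11345520 on the minus strand, 73 bases before, and CNN2 at chr19:1026509-1026538 on the plus strand, 89 bases before. FLNA and TES are the other members with a box. Of the 10 members with a box, 2 were called higher in sgH2AC19, 2 lower and 6 neither, with a median log2 fold change of -0.02. Over all genes tested 12.0% were called higher and 11.0% lower, and with only 10 members nothing is read from these counts. A match of letters is a description of the promoter, and binding was not measured here.

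All values below are FPKM, a measure of fragments corrected for gene length and library total. Levels set side by side between genes depend on the gene lengths used. For 43 of the 48 members the values gave whole reads at a length other than the annotated one, so the order of members by level is uncertain. Read totals recovered from the table were 35681162 to 45738439 per library, and a tested member rested on 439 to 178652 reads in a library. The 6 epithelial markers were all present, with a summed level of 587 to 624 FPKM in sgControl and 754 to 791 in sgH2AC19. Of the 7 fibroblast markers 2 reached 1 FPKM, and their sum was 3.38 to 3.87 FPKM in sgControl and 5.30 to 6.17 in sgH2AC19, mostly LUM. None of the 6 smooth muscle, 5 endothelial or 5 leukocyte markers reached 1 FPKM in 3 libraries. Their sums in sgControl and sgH2AC19 were 1.44 to 1.67 and 1.90 to 2.45 for smooth muscle, 0.129 to 0.204 and 0.213 to 0.269 for endothelium, and 0.333 to 0.808 and 0.303 to 0.400 for leukocytes, with CD3E at 0 in all libraries. The part of these markers in the results was not tested. In sgH2AC19 replicate 3 the genes tested spread wider around the other libraries of its group (SD 0.212 on the log2 scale) than in replicates 1 and 2 (0.170 and 0.172), and results are given with and without that library where it changes them.

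The levels of the 48 members ran from 0 to 1105 FPKM. In sgControl, 6 members had a mean of at least 100 FPKM (ACTG1, ACTB, PFN1, ACTN4, FLNA and TAGLN2), 25 lay between 10 and 100, 13 between 1 and 10, and 4 below 1. Together the members held 1.06% ± 0.0159 of all FPKM in sgControl and 1.01% ± 0.0799 in sgH2AC19 (SD, n = 3 each). The sgControl libraries stood at 1.05%, 1.07% and 1.07%, and the sgH2AC19 libraries at 0.980%, 0.955% and 1.10%, so the groups overlapped in this total through sgH2AC19 replicate 3. The 4 members with a mean below 1 FPKM are CNN1, MYL9, FLNC and ILK. CNN1, smooth muscle calponin, was listed at 0 in 5 libraries and at 0.0186 FPKM in sgH2AC19 replicate 3. MYL9, a myosin light chain, was at 0.449 to 1.18 FPKM over the 6 libraries, and FLNC, muscle filamin, was at 0.298 to 0.618. ILK, the scaffold that joins PINCH and parvin, was listed at 0.341 to 0.524 FPKM, and 78.5% of its exon length in GENCODE 29 overlaps genes on the other strand.

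Between sgH2AC19 and sgControl, the members moved in both directions. TPM4, LPP, MRTFA and CNN3 rose, and LIMA1, ZYX, PXN, PFN1, ACTG1, BCAR1, ACTN4 and ACTN1 fell (adjusted p under 0.05 in limma, log2(FPKM + 1) scale). Of the 43 members tested other than VCL, 4 were called higher, 8 lower and 31 neither. The same fit puts VCL lower too, which makes 9 lower of 44, but its values helped to choose the list, so its call is no support. VCL kept that call in only 6 of 12 alternative fits. Over all genes tested 12.0% were called higher and 11.0% lower, 23.1% in all. The median log2 fold change was -0.07 over the 44 members and -0.01 over all genes tested. In a bulk measurement, fewer cells that make an RNA and less of that RNA per cell cannot be told apart.

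Leaving out a library moved these counts, for the members as for all genes. Without sgH2AC19 replicate 3, 5 members other than VCL were called higher and 17 lower, where 14.1% and 13.0% of all genes were called higher and lower. These 22 included all 12 called with 6 libraries, and the added members were CFL1, FERMT2, LIMS1, MYH9, ROCK1, SRF, TAGLN, TGFB1I1 and TPM1, lower, and ROCK2, higher. Replicate 3 was set apart because the split of VCL had been seen. Calls made without it, here and below, therefore describe the values and are no independent support. Leaving out sgControl replicate 1, 2 or 3 left 6, 4 and 4 members called lower, where 5.51%, 4.82% and 5.21% of all genes were called lower. Leaving out sgH2AC19 replicate 1 or 2 left 5 and 6, where 8.36% and 7.43% of all genes were called lower. The share over all genes was thus also below the 11.0% of the fit with 6 libraries. By the plain order of values, 15 members had all 3 sgH2AC19 libraries below all 3 sgControl libraries, as did 21.7% of all genes tested. VCL is 1 of those 15, and as its values helped to choose the list, its place there is no support. In 11 members all 3 lay above, as in 21.5% of all genes tested. In the plot of every tested member against its sgControl mean, the sgControl points lie close to 0 and sgH2AC19 replicate 3 mostly lies to the right of replicates 1 and 2.

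**Figure D1:**
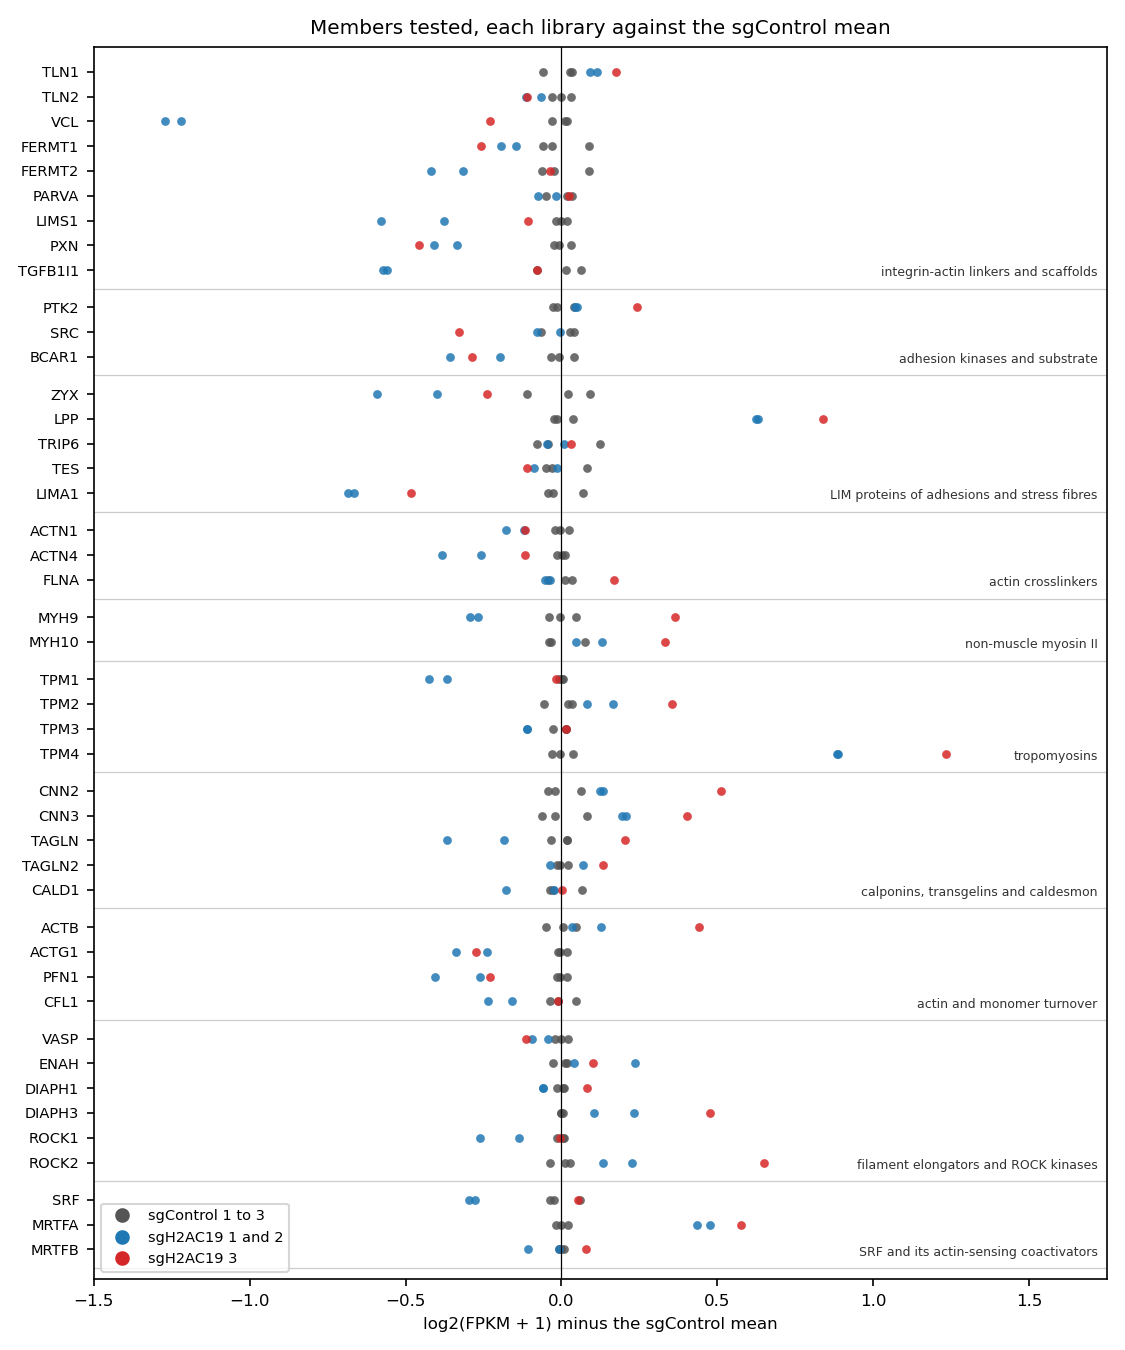
Each row is 1 of the 44 members tested, grouped by role, and each point is 1 library, placed by its log2(FPKM + 1) minus the mean of the 3 sgControl libraries (grey, sgControl; blue, sgH2AC19 replicates 1 and 2; red, sgH2AC19 replicate 3). TPM4 and LPP lie farthest to the right and VCL farthest to the left, with its red point near the controls at -0.23.

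Among the linkers between integrins and actin, the reading that set VCL apart is plain in its values. VCL (ENSG00000035403, chr10:73995193-74121363 in GRCh38, GENCODE 29, plus strand) encodes vinculin, which binds talin and actin and strengthens adhesions under load. It stood at 59.7, 61.5 and 61.6 FPKM in sgControl replicates 1 to 3, and at 25.6, 24.6 and 51.8 in sgH2AC19 replicates 1 to 3. Replicates 1 and 2 of sgH2AC19 were thus at 0.412 times the sgControl mean and replicate 3 at 0.851 times. All 3 were below the lowest sgControl library, but replicate 3 was closer to the controls than to the other libraries of its own group. These values rest on many reads, 8775 to 24982 per library at the annotated gene length. Of VCL's exon length 11.1% overlaps AP3M1 on the other strand, and whether strand was used in counting is not given in the sources used here.

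PXN, paxillin, is the scaffold on which adhesion kinases and their substrates meet. PXN (ENSG00000089159, chr12:120210439-120265771, minus strand) was at 13.9, 14.0 and 14.5 FPKM in sgControl and 11.0, 10.4 and 10.0 in sgH2AC19. It fell by 0.40 on the log2 scale (SE 0.0486, adjusted p = 0.00224), with no overlap between groups and, unlike VCL, with replicate 3 lowest. Its close relative TGFB1I1, also called Hic-5, was at 5.23, 5.44 and 4.84 FPKM in sgControl and 3.14, 3.18 and 4.83 in sgH2AC19. There replicate 3 lay at the edge of the controls, and the difference was not called over 6 libraries (log2 fold change -0.40, SE 0.132, adjusted p = 0.0647) but was without replicate 3 (-0.57, adjusted p = 0.00176).

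The remaining linkers had smaller differences. LIMS1, also called PINCH1, the LIM partner of ILK, was at 16.5, 17.0 and 16.7 FPKM in sgControl and 10.9, 12.7 and 15.5 in sgH2AC19, lower in all 3 libraries but not called (log2 fold change -0.35, adjusted p = 0.0538). FERMT2, kindlin-2, which helps talin to activate integrins, was at 17.4 to 19.4 FPKM in sgControl and at 13.4, 14.4 and 17.7 in sgH2AC19. Without replicate 3 both were called lower, at adjusted p = 0.00398 for LIMS1 and 0.00786 for FERMT2. FERMT1, the epithelial kindlin, had 4.18 ± 0.288 FPKM in sgControl and 3.51 ± 0.176 in sgH2AC19 (SD, n = 3 each), and the difference was not called (adjusted p = 0.0563) except under median-ratio scaling (0.0466). The talins, which connect integrin tails to actin directly, differed in level: TLN1 had 25.9 ± 0.966 FPKM in sgControl and 28.4 ± 0.871 in sgH2AC19, and TLN2 had 1.97 ± 0.0645 and 1.78 ± 0.0514. Neither talin was called, nor was PARVA, an actin-binding partner of ILK, at 6.24 ± 0.222 and 6.13 ± 0.246 FPKM.

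The adhesion kinases SRC and PTK2 phosphorylate the scaffold BCAR1, also called p130Cas, when integrins are engaged. BCAR1 was at 4.59, 4.89 and 4.69 FPKM in sgControl and 3.99, 3.47 and 3.69 in sgH2AC19, and it fell by 0.28 on the log2 scale (SE 0.0585, adjusted p = 0.0153). Without sgControl replicate 2 or 3 it was not called (adjusted p = 0.0621 and 0.0533), while its log2 fold change was -0.26 and -0.285. SRC, the most abundant of the 3 RNAs, was at 24.7, 22.9 and 24.5 FPKM in sgControl and 23.9, 22.7 and 18.9 in sgH2AC19. Its groups overlapped, and sgH2AC19 replicate 3 was the lowest of the 6 libraries. PTK2, focal adhesion kinase, had 13.8 ± 0.378 FPKM in sgControl and 15.0 ± 1.28 in sgH2AC19, with replicate 3 highest at 16.5. Neither kinase was called (adjusted p = 0.282 for SRC and 0.246 for PTK2).

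The LIM proteins of adhesions and stress fibres split. LPP and LIMA1 moved in opposite directions in all 3 sgH2AC19 libraries, and ZYX was lower. LPP, a zyxin relative that also reaches the nucleus (ENSG00000145012, chr3:188153284-188890671, plus strand), was at 5.53, 5.27 and 5.30 FPKM in sgControl and 8.80, 8.86 and 10.4 in sgH2AC19. It rose by 0.70 on the log2 scale (SE 0.0680, adjusted p = 0.00119), a ratio of means of 1.74, and every sgH2AC19 library was above every sgControl library. LIMA1, also called EPLIN, bundles filaments and slows their depolymerisation (ENSG00000050405, chr12:50175788-50283546, minus strand). It was at 10.4, 11.2 and 10.3 FPKM in sgControl and 6.33, 6.22 and 7.31 in sgH2AC19, a fall by 0.61 (SE 0.0680, adjusted p = 0.00170) to 0.623 times the control mean. LPP and LIMA1 kept their call and direction in all 12 alternatives.

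ZYX, zyxin, is recruited to strained stress fibres and brings filament elongators there (ENSG00000159840, chr7:143381080-143391111, plus strand). It was at 30.0, 34.7 and 33.0 FPKM in sgControl and 24.4, 21.2 and 27.4 in sgH2AC19. ZYX fell by 0.41 on the log2 scale (SE 0.0948, adjusted p = 0.0216), and the groups did not overlap, although replicates differed more within groups than for LIMA1. When sgControl replicate 2 or 3 was left out it was not called (adjusted p = 0.0771 and 0.0693, log2 fold change -0.36 and -0.40), nor when sgH2AC19 replicate 1 was (0.0549, log2 fold change -0.42). TES, testin, the LIM member with the highest mean over the 6 libraries, was at 31.6, 34.2 and 31.1 FPKM in sgControl and 30.3, 31.9 and 29.8 in sgH2AC19, with overlapping groups (adjusted p = 0.364). TRIP6 was at 9.77 ± 0.823 FPKM and 9.74 ± 0.293, a log2 fold change of 0.00 to 2 decimals (adjusted p = 0.985).

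**Figure D2:**
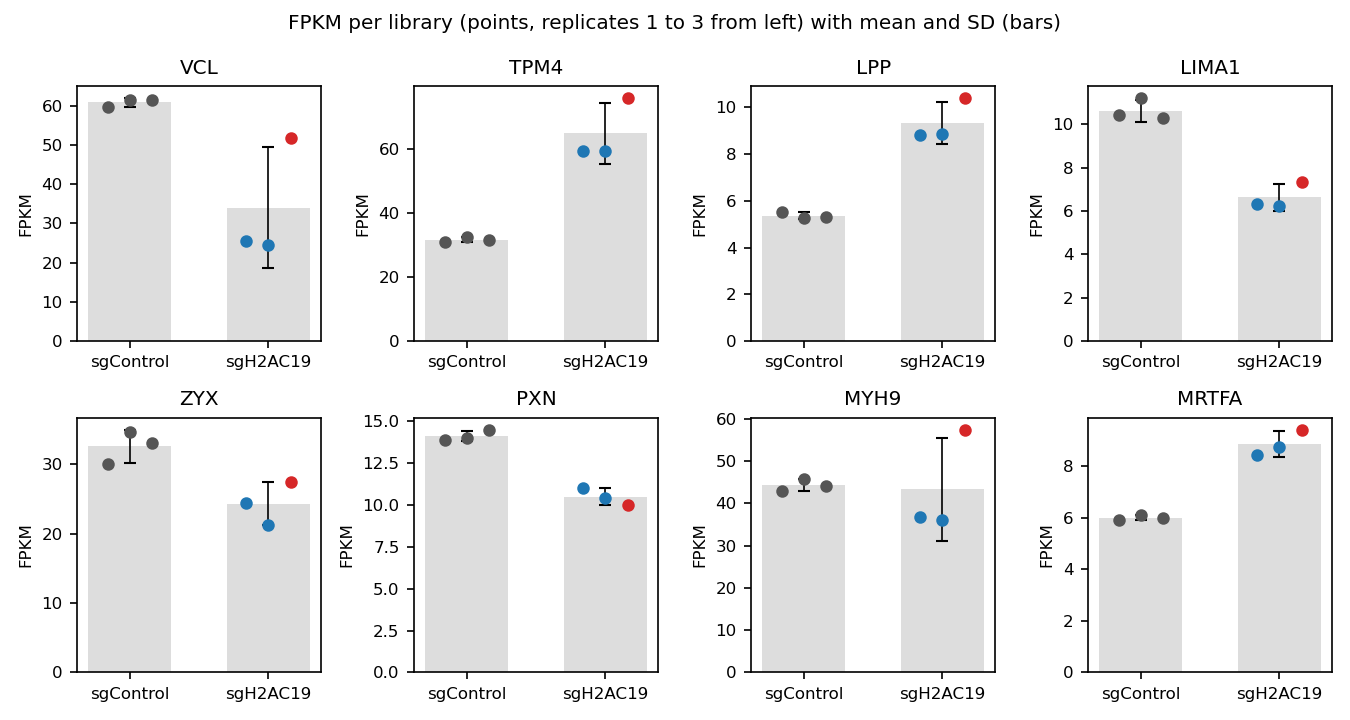
FPKM of 8 members in every library (points, replicates 1 to 3 from the left in each group; grey, sgControl; blue, sgH2AC19 replicates 1 and 2; red, sgH2AC19 replicate 3), with bars at the group mean and error bars of 1 SD (n = 3). VCL has a mean of 25.1 FPKM in sgH2AC19 replicates 1 and 2 and stands at 51.8 in replicate 3, whereas for PXN replicate 3 is the lowest of its group.

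Of the crosslinkers ACTN4 and FLNA were among the most abundant members, and both alpha-actinins were lower. ACTN4, non-muscle alpha-actinin, was at 212, 214 and 216 FPKM in sgControl and 179, 164 and 197 in sgH2AC19, a fall by 0.25 on the log2 scale (SE 0.0661, adjusted p = 0.0329). ACTN1 had 33.4 ± 0.539 FPKM in sgControl and 30.3 ± 0.760 in sgH2AC19, a fall by 0.14 (SE 0.0405, adjusted p = 0.0476). The groups did not overlap for either gene, yet leaving out any 1 library other than sgH2AC19 replicate 3 took both calls away, with adjusted p from 0.0651 to 0.0972 for ACTN4 and from 0.0809 to 0.149 for ACTN1. ACTN1 was not called under median-ratio scaling either (0.0584). FLNA, filamin A, which crosses filaments at wide angles and ties them to integrins, was at 166, 175 and 172 FPKM in sgControl and 167, 165 and 192 in sgH2AC19. Replicates 1 and 2 overlapped with the controls and replicate 3 was highest of all 6, with a log2 fold change of 0.03 (adjusted p = 0.801) that turned to -0.04 without replicate 3.

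Non-muscle myosin II, the motor of stress fibres, showed the second largest split between sgH2AC19 libraries. MYH9, the heavy chain of myosin IIA, was at 43.0, 45.8 and 44.1 FPKM in sgControl and 36.7, 36.0 and 57.4 in sgH2AC19. Replicates 1 and 2 lay below all sgControl libraries and replicate 3 above them, so the fold change over 6 libraries was small and not called (-0.06, SE 0.165, adjusted p = 0.811). Without replicate 3 it was -0.28 (adjusted p = 0.00501), and without sgH2AC19 replicate 1 or 2 it was 0.04 and 0.05. MYH10, the heavy chain of myosin IIB, had 3.21 ± 0.196 FPKM in sgControl and 3.75 ± 0.494 in sgH2AC19 and was not called (adjusted p = 0.181).

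Among the tropomyosins, which coat filaments and set which motors and severing proteins can bind, TPM4 alone was called. TPM4 (ENSG00000167460, chr19:16067021-16103005, plus strand) was at 31.0, 32.5 and 31.6 FPKM in sgControl and 59.3, 59.5 and 75.9 in sgH2AC19. It rose by 1.00 on the log2 scale (SE 0.0943, adjusted p = 0.00108), a ratio of means of 2.05, and held rank 29 from the top among the log2 fold changes of all 12871 genes tested. The call stood in all 12 alternatives, with adjusted p up to 0.00870. TPM4P3, by its symbol a pseudogene copy of TPM4, was at 17.7 ± 1.84 FPKM in sgControl and 34.3 ± 4.01 in sgH2AC19 (SD, n = 3 each), so reads may be split between gene and copy, and the level of TPM4 alone is uncertain.

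The other tropomyosins did not follow TPM4. TPM1 was at 41.2, 41.6 and 41.5 FPKM in sgControl and 30.6, 31.9 and 40.9 in sgH2AC19, with replicate 3 just under the controls (log2 fold change -0.27, adjusted p = 0.0965, and -0.40, adjusted p = 0.00118 without replicate 3). TPM2, the highest in sgControl by FPKM, was at 58.0, 54.9 and 58.5 FPKM and at 64.2, 60.5 and 73.4 in sgH2AC19, higher in all 3 but not called (adjusted p = 0.0871). By reads TPM2 was the lowest tropomyosin, with 6695 in sgControl replicate 1 against 21951 for TPM1. The order of the tropomyosins and the shares below thus depend on the gene lengths used. TPM3 had 24.4 ± 0.408 and 23.2 ± 1.22 FPKM (adjusted p = 0.350), and its copy TPM3P5 had 13.1 ± 0.422 and 13.7 ± 1.69. As a share of the summed FPKM of TPM1 to TPM4, TPM4 held 20.5% ± 0.572 in sgControl and 34.3% ± 0.896 in sgH2AC19, and TPM1 held 26.8% ± 0.269 and 18.2% ± 0.873. These shares were alike in the 3 sgH2AC19 libraries, at 33.6%, 34.1% and 35.3% for TPM4, although the sum itself was 177, 174 and 215 FPKM. TPM2 and TPM3 held 36.9% and 15.8% of the sum in sgControl and 35.1% and 12.4% in sgH2AC19.

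**Figure D3:**
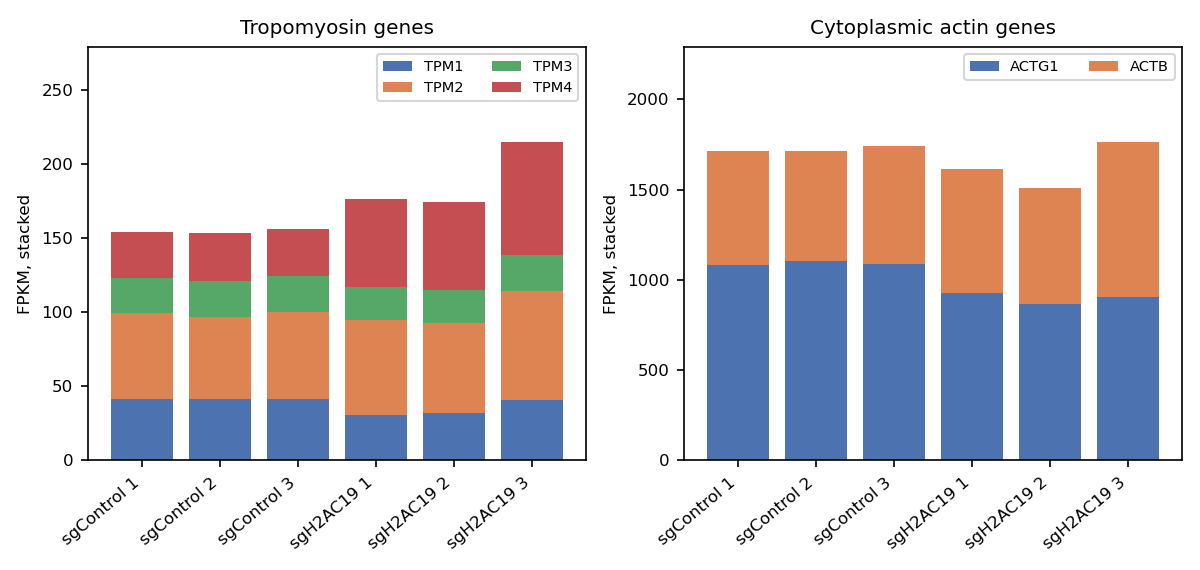
Stacked FPKM of the 4 tropomyosin genes (left) and of the 2 cytoplasmic actin genes (right) in each of the 6 libraries. The TPM4 segment grows from between 31.0 and 32.5 FPKM in sgControl to between 59.3 and 75.9 in sgH2AC19, and the ACTG1 segment is shorter in all 3 sgH2AC19 libraries.

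Calponins, transgelins and caldesmon bind along filaments and modulate myosin. CNN3 was at 35.4, 34.3 and 38.0 FPKM in sgControl and 41.6, 41.2 and 47.7 in sgH2AC19, and it rose by 0.27 on the log2 scale (SE 0.0692, adjusted p = 0.0316), a call lost without sgControl replicate 1 (0.0941) or 2 (0.105). CNN2 was at 22.3 to 24.1 FPKM in sgControl and at 25.2, 25.3 and 33.2 in sgH2AC19, higher in all 3 libraries but not called (adjusted p = 0.120). Both calponins had replicate 3 as their highest library. TAGLN2, the most abundant of the group, was at 121, 124 and 122 FPKM in sgControl and 128, 119 and 134 in sgH2AC19, and its groups overlapped (adjusted p = 0.468). TAGLN, also called SM22 and a classic SRF target, was at 2.32, 2.31 and 2.19 FPKM in sgControl and 1.54, 1.88 and 2.77 in sgH2AC19. Replicates 1 and 2 lay under the controls and replicate 3 over them. The log2 fold change of TAGLN was -0.12 (adjusted p = 0.573) over 6 libraries and -0.28 (0.0434) without replicate 3. CALD1, caldesmon, had 47.0 ± 1.88 FPKM and 44.8 ± 3.02 (adjusted p = 0.448).

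The actins and the proteins that recycle their monomers gave the highest levels. ACTG1, cytoplasmic gamma-actin, was at 1082, 1105 and 1087 FPKM in sgControl and 924, 863 and 902 in sgH2AC19, and fell by 0.28 on the log2 scale (SE 0.0394, adjusted p = 0.00358). ACTB, beta-actin, was at 634, 611 and 654 FPKM in sgControl and 691, 648 and 860 in sgH2AC19, with overlapping groups and no call (log2 fold change 0.20, SE 0.0992, adjusted p = 0.184). For ACTG1, a fit with no filter beyond a value above 0 gave an adjusted p of 0.0684, which ended its call. The share of ACTB in the sum of both actins was 37.0%, 35.6% and 37.6% in sgControl and 42.8%, 42.9% and 48.8% in sgH2AC19, without overlap. The sum itself was 1724 ± 14.1 FPKM in sgControl and 1629 ± 126 in sgH2AC19, where the libraries ran from 1510 to 1761 and overlapped with the controls. Pseudogenes named for ACTG1 (21 in the table) summed to 2.08 FPKM in sgControl and 2.75 in sgH2AC19, and those of ACTB (12) to 0.590 and 0.581.

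PFN1, profilin, which loads actin monomers for elongation, had 317 ± 3.64 FPKM in sgControl and 258 ± 16.5 in sgH2AC19. It fell by 0.30 on the log2 scale (SE 0.0522, adjusted p = 0.00842), with libraries at 264, 239 and 270 FPKM against 314 to 321, and the call held in all 12 alternatives. Its copy PFN1P1 had 14.9 ± 1.74 and 11.2 ± 0.382 FPKM. CFL1, cofilin, which severs old filaments, was at 70.1, 71.4 and 74.3 FPKM in sgControl and 64.3, 61.0 and 71.5 in sgH2AC19. Replicate 3 lay among the controls, and CFL1 was not called (adjusted p = 0.163) except without that library (0.0197).

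No filament elongator or ROCK kinase was called over 6 libraries. VASP, which speeds the growth of barbed ends, was at 34.9, 35.4 and 36.0 FPKM in sgControl and 34.4, 33.1 and 32.7 in sgH2AC19, slightly lower in all 3 (log2 fold change -0.08, adjusted p = 0.176). Its relative ENAH had 17.4 ± 0.318 FPKM in sgControl and 19.2 ± 1.43 in sgH2AC19. The formins, which build unbranched filaments, were at 19.4 ± 0.162 and 19.2 ± 1.16 for DIAPH1 and at 3.58 ± 0.0101 and 4.56 ± 0.747 for DIAPH3. DIAPH3 had all 3 sgH2AC19 libraries above the controls (adjusted p = 0.0756) and was called higher without sgH2AC19 replicate 1 (0.0366).

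The kinases ROCK1 and ROCK2, which activate myosin II, lay on opposite sides of the controls in sgH2AC19 replicates 1 and 2. ROCK2 was at 14.0, 13.8 and 13.3 FPKM in sgControl and 15.1, 16.2 and 22.1 in sgH2AC19, with a log2 fold change of 0.34 (SE 0.125, adjusted p = 0.0933). ROCK1 was at 8.96, 8.98 and 8.82 FPKM in sgControl and 7.28, 8.02 and 8.89 in sgH2AC19, with a log2 fold change of -0.13 (SE 0.0683, adjusted p = 0.196). Without replicate 3 ROCK2 was called higher (0.18, adjusted p = 0.0363) and ROCK1 lower (-0.20, adjusted p = 0.0346).

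SRF and its coactivators closed the list, and MRTFA alone was called. MRTFA (ENSG00000196588, chr22:40410281-40636702, minus strand) was at 5.92, 6.11 and 5.99 FPKM in sgControl and 8.46, 8.74 and 9.43 in sgH2AC19. It rose by 0.49 on the log2 scale (SE 0.0521, adjusted p = 0.00147), a ratio of means of 1.48, in all 3 libraries and in all 12 alternatives. SRF itself was at 9.84, 10.6 and 9.94 FPKM in sgControl and 8.06, 8.17 and 10.5 in sgH2AC19, so that replicates 1 and 2 lay below the controls and replicate 3 within them (log2 fold change -0.17, adjusted p = 0.232, and -0.29, adjusted p = 0.00852 without replicate 3). MRTFB was at 5.11 ± 0.0362 and 5.07 ± 0.389 FPKM (adjusted p = 0.900).

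Set apart from the other sgH2AC19 libraries, replicate 3 was the highest of the 3 for most members. It stood above both replicates 1 and 2 for 35 of the 44 members tested (79.5%), below both for 5 (11.4%) and between them for 4. Over all genes tested it was above both for 29.2% and below both for 47.1%. The difference between replicate 3 and the mean of replicates 1 and 2 had a median of 0.19 on the log2 scale over the members and -0.03 over all genes tested. The same measure for each sgControl library against the other 2 had a median over the members from -0.03 to 0.02. Because the split of VCL is part of how the list came about, these counts carry no test, and nothing is read from their distance to the shares over all genes.

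The largest such differences were 1.02 for VCL, 0.65 for MYH9, 0.49 for TGFB1I1, 0.48 for TAGLN and 0.47 for ROCK2. Of all genes tested 23 had a larger difference than VCL, and 6 fell further than VCL in replicates 1 and 2. These ranks rest on the values for which VCL was picked out, so they describe VCL and support nothing further. The lowest were -0.29 for SRC, -0.09 for PXN, -0.09 for FERMT1, -0.06 for TES and -0.05 for VASP. These 5 are the members in which replicate 3 was below both of the others, and they are a pair of linkers, a kinase, a LIM protein and an elongator. Replicate 3 was above both others in all 4 tropomyosins, all 5 calponins, transgelins and caldesmon tested, both myosin heavy chains, all 3 crosslinkers tested and all 3 genes of the SRF group.

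In 9 members replicates 1 and 2 lay below all sgControl libraries and replicate 3 did not: FERMT2, MYH9, TPM3, TAGLN, CFL1, DIAPH1, ROCK1, SRF and MRTFB. That is 20.5% of the members tested, where 4.99% of all genes tested had this pattern. No member had the opposite pattern, with replicates 1 and 2 above the controls and replicate 3 not, which 8.17% of all genes tested had. Replicate 3 was above the mean of replicates 1 and 2 in 9 of the 10 members with a CArG box, TES being the exception, in 36 of all 44 members tested (81.8%) and in 40.4% of all genes tested. The plot of replicate 3 against replicates 1 and 2 shows both features: most members lie above the line of equal change, and VCL lies far to the left of the others.

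**Figure D4:**
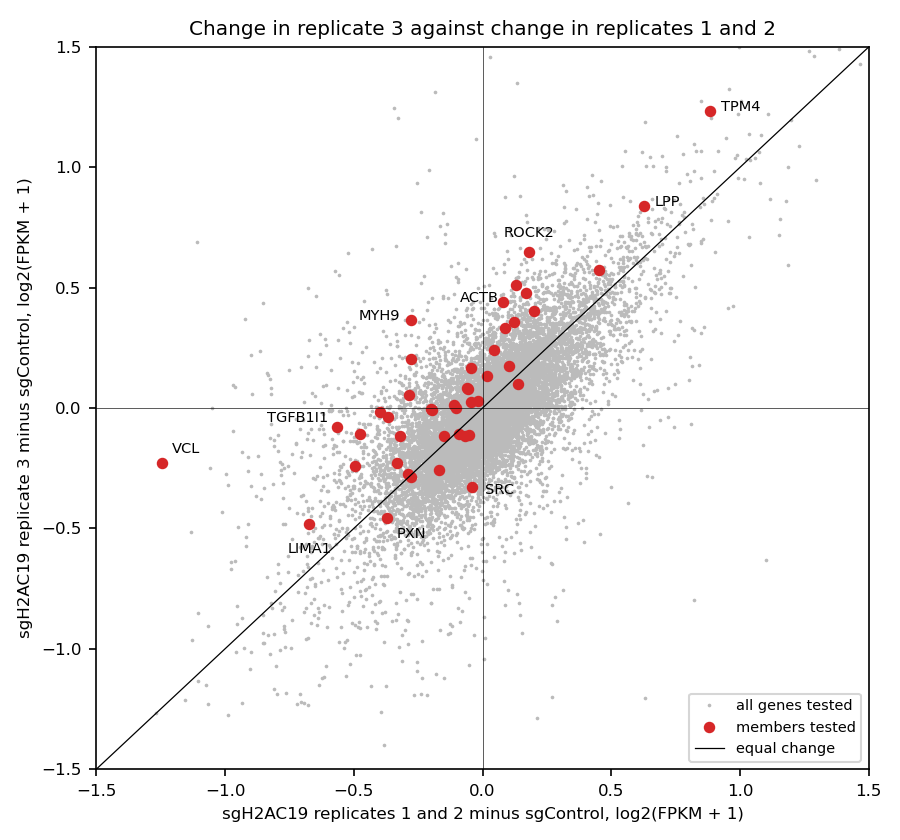
Each point is a gene tested, placed by its log2(FPKM + 1) in the mean of sgH2AC19 replicates 1 and 2 (horizontal) and in replicate 3 (vertical), each minus the sgControl mean; members are red, all genes grey, and the diagonal marks equal change. Of the members, 35 of 44 have replicate 3 above both other libraries and so lie above the diagonal, with VCL at -1.25 and -0.23; 18 genes that are no members lie outside the axes, which end at 1.5.

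Other genes of the same pathways were followed from 6 lists of 111 genes in all, which share some genes with each other and were drawn up by function. Their counts stand beside the shares over all genes tested given above: 12.0% called higher and 11.0% lower with 6 libraries, 14.1% and 13.0% without sgH2AC19 replicate 3, and 4.82% to 8.36% lower with any other library left out. In the Arp2/3 complex, which starts branched filaments, 0 of 8 subunits tested rose and 5 fell, with a median log2 fold change of -0.23. Without sgControl replicate 1, 2 or 3 the count lower was 2, 1 and 2, and without sgH2AC19 replicate 1, 2 or 3 it was 2, 3 and 6. ARPC5 went from 28.7 ± 0.419 FPKM to 22.4 ± 2.11 (adjusted p = 0.0114) and ACTR3 from 28.3 ± 0.587 to 22.8 ± 1.79 (adjusted p = 0.0135, and 0.0540 without sgControl replicate 2). The list of WAVE and WASP activators of Arp2/3 also holds their binding partners and cortactin. Of its 12 genes tested 1 rose and 1 fell, and 2 rose and 2 fell without sgH2AC19 replicate 3. CTTN, cortactin, which stabilises branches, rose from 33.1 ± 0.647 to 43.8 ± 1.91 FPKM (adjusted p = 0.00208). CYFIP2, a WAVE complex subunit, went from 3.05 ± 0.0909 to 2.50 ± 0.0185 (adjusted p = 0.0261), a call lost on leaving out any 1 library other than sgH2AC19 replicate 3 (0.0606 to 0.0985).

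Of 21 severing and capping genes 3 rose and 6 fell. Over all genes 12.0% rose and 11.0% fell. The count higher was 1 on leaving out any 1 library other than sgH2AC19 replicate 3. In those fits 904 to 1079 of all genes were called higher, against 1545 with 6 libraries. The count lower was 1 without any 1 sgControl library, where 4.82% to 5.51% of all genes were called lower, and 5, 2 and 4 without sgH2AC19 replicate 1, 2 or 3. LIMK1, the kinase that switches cofilin off, rose from 4.06 ± 0.181 to 5.79 ± 0.290 FPKM (adjusted p = 0.00296), and CAP1, which recycles cofilin-bound monomers, fell from 89.2 ± 0.912 to 70.4 ± 6.67 (adjusted p = 0.0124, and 0.0528 with no filter beyond a value above 0). Of 9 genes for myosin II light chains, the heavy chain MYH14, the kinase MYLK and the phosphatase, 1 rose and 2 fell, or 3 fell without sgH2AC19 replicate 3. MYL12A, a regulatory light chain, fell from 69.5 ± 1.18 to 53.2 ± 3.62 FPKM (adjusted p = 0.00398), and PPP1R14B, a phosphatase inhibitor, rose from 8.64 ± 0.385 to 11.2 ± 0.266 (adjusted p = 0.00395).

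Of 39 other focal adhesion genes 9 rose and 4 fell, with a median log2 fold change of -0.02, and 8 rose and 11 fell without sgH2AC19 replicate 3. Those lower included VIM, vimentin, which was placed in this list. Over all genes 12.0% rose and 11.0% fell with 6 libraries. TNS3, a tensin, which links integrins to actin, had the largest rise in the list (named after its values were seen, as was ANKRD1), at 22.9 ± 1.41 FPKM in sgControl and 35.3 ± 1.77 in sgH2AC19 (adjusted p = 0.00126, log2 fold change 0.61). ITGA2, the collagen-binding integrin alpha-2 subunit, was at 89.4, 91.2 and 92.5 FPKM in sgControl and 50.1, 49.7 and 47.2 in sgH2AC19 (log2 fold change -0.88, SE 0.0413, adjusted p = 0.000114). In ITGA2 replicate 3 was the lowest library. Of 18 other SRF targets 3 rose and 5 fell, and 4 rose and 8 fell without sgH2AC19 replicate 3, beside 12.0% and 11.0% of all genes with 6 libraries and 14.1% and 13.0% without replicate 3. ANKRD1 had the largest rise, at 6.19 ± 0.705 FPKM in sgControl and 10.3 ± 1.09 in sgH2AC19 (adjusted p = 0.00403, log2 fold change 0.65). EGR1, an immediate early gene, was at 11.0, 15.0 and 11.0 FPKM in sgControl and 5.48, 5.10 and 6.04 in sgH2AC19 (log2 fold change -1.01, SE 0.119, adjusted p = 0.00206), and MCL1, an inhibitor of apoptosis, fell from 123 ± 8.27 to 84.5 ± 2.30 FPKM (adjusted p = 0.00147). For these 6 lists the median difference of replicate 3 from the mean of replicates 1 and 2 ran from -0.01 for the WAVE and WASP activators to 0.15 for the other SRF targets.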

How the data were processed

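The study sequenced RNA of A549 cells in 3 sgControl and 3 sgH2AC19 libraries, prepared with a SMARTer kit for mRNA per the labels. The authors deposited 1 table of FPKM values with a column per library, per the file headers, so replicates were not pooled. The submitters' processing notes name the mouse builds GRCm38 and mm10, whereas all 62700 IDs are human Ensembl genes. How reads were aligned and counted, with which annotation and whether by strand, is not given in the sources used here. The sgNC columns were read as sgControl, and the sgH2AC columns as sgH2AC19.

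On the log2(FPKM + 1) scale, limma 3.58.1 in R 4.3.3 was fitted with a trended prior variance to the 12871 genes at or above 1 FPKM in 3 or more libraries. The test was two-sided, p-values were adjusted by Benjamini-Hochberg over those genes, and the threshold was 0.05. All adjusted p-values are from limma. Fold changes are on that log2 scale, where a low gene's change is understated. Group means and SDs use the FPKM of 3 libraries. Read totals follow from the spacing of FPKM values, and all 48 members then gave whole reads within 0.001, 5 at the annotated gene length and 43 at another length.

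The members, their roles, the pathway lists and the markers were chosen with earlier results of these data known. The text gives in full VCL, called members with a log2 fold change of at least 0.3 in size, the most abundant member of each of 10 roles and the 5 members at each end of the replicate 3 difference, with up to 2 called genes per pathway list. Other members, TNS3 and ANKRD1 were added after their values were seen. A few results under this rule are left out and not reported here. Gene positions are from GENCODE 29 (GRCh38), matched by ID, and promoters from RefSeq (GRCh38.p14). The alternatives were median-ratio and upper-quartile scaling, 2 other filters, a pseudocount of 0.1, the replicate number as a block, and each library left out. Figures used Python 3.11.15 with matplotlib 3.10.9.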

Additional observations from a re-analysis of the deposited data

How the results depend on the processing

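Every member called over 6 libraries kept its direction in all 12 alternatives, and LIMA1, LPP, MRTFA, PFN1, PXN and TPM4 kept their call in all of them. With all genes above 0 FPKM tested, 1553 genes in all were called rather than 2967, 3 members were called lower rather than 9, and 3 rather than 4 higher. That fit left out only the 25762 of 62700 genes at 0 FPKM in every library, whereas the filtered fit tested 12871. The totals thus have unlike bases, and nothing is read from their difference. The counts here include VCL. Among the other members the calls lost there were those of ZYX, BCAR1, ACTN1, ACTN4, ACTG1 and CNN3, and of CAP1 and CYFIP2 among the other genes named. Leaving out 1 library gave 1513 to 3429 genes called, 904 to 1784 of them higher and 609 to 1645 lower. Among the members 4 to 18 were called lower and 3 to 5 higher, and their median log2 fold change was from -0.09 to -0.03. The median replicate 3 difference of the members was 0.23 rather than 0.19 under median-ratio scaling. Members that changed sign were not called over 6 libraries. TRIP6 was at 0.0003 under median-ratio scaling, and leaving out 1 library gave -0.0421 to 0.0595. With 1 library left out the others ran from -0.0477 to 0.0036 for PARVA, -0.0439 to 0.066 for FLNA, -0.2796 to 0.0495 for MYH9, -0.2768 to 0.0084 for TAGLN, -0.0587 to 0.012 for DIAPH1 and -0.0581 to 0.0345 for MRTFB. In these fits a group of 2 libraries shares its spread with the group of 3. The labels do not say whether same-numbered libraries are paired. Their deviations from the group means had correlations of 0.052, 0.035 and 0.060. Pairs with unlike numbers ran from -0.046 to 0.005. Values this small do not settle whether the libraries were paired. Under the replicate block 2729 genes were called, with 4 members higher and 9 lower. In that fit LIMS1 was called (adjusted p = 0.0472) and ACTN1 was not (0.0894), nor was CYFIP2 (0.0609). The cause of these shifts was not tested. Each tested member rested on 439 or more reads in each library, and the 4 members under 1 FPKM were too low to test.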
